A study of Mus musculus with 18 samples.

Results

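Tandem cassette exons are neighbouring alternative exons that are spliced into a transcript, or left out of it, as a block between the same flanking exons. The 720 tandem cassette events described here were all the rows of that type in a table of 1991 splicing events that differed between wild-type and Nova2-/- cortex, and they lay on 294 distinct spans, from the start of the upstream flanking exon to the end of the downstream flanking exon, in 233 gene symbols. Of the 720 events, 706 named 2 alternative exons, 13 named 3 and 1 named 4. For comparison, the table held 941 single cassette events on 642 spans. RNA-seq was made from brains of wild-type, Nova2-/- and Nova1-/- mouse embryos on a CD1 background at embryonic day 18.5, with 3 samples in each of 6 groups. Wild-type samples 1 to 3 and 3 Nova2-/- samples were from cortex, wild-type samples 4 to 6 and 3 Nova1-/- samples were from cortex, and the same wild-type and Nova1-/- numbers were also sampled as midbrain with hindbrain. Both alleles are constitutive, so every cell of the embryo lacked the protein. In the Nova2 allele, a cassette carrying IRES-Cre took the place of the exon that holds the initiator codon.

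NOVA1 and NOVA2 are neuronal RNA-binding proteins that recognise clusters of a pyrimidine, C, A and a pyrimidine in pre-mRNA. Where NOVA binds upstream of or inside an alternative exon it tends to cause skipping, and where it binds downstream it tends to cause inclusion. NOVA2 is the main family member in the embryonic neocortex, where its targets include cytoskeletal, adhesion and synaptic proteins. The measure of splicing was ΔI, the inclusion of the alternative exons in wild-type minus that in the knockout, on a scale where 1 is full inclusion. A positive ΔI marks exons included less in the knockout, and a negative ΔI marks exons included more. The deposited ΔI is a single value for each comparison of 3 with 3 samples. Values for each sample and read numbers were not used here, so ΔI is given with no SD. Several events usually share a span and its reads, so events are not independent of each other. In bulk tissue, fewer cells of a type and less inclusion per cell cannot be told apart.

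The largest shifts in either direction can be set beside the reference sequence they lie in. The exons of 83 of the 294 spans (28.2%) could be placed on the mm9 build, 63 of them from coordinates held in the event name and 20 because the annotation held a single chain with the named number of inner exons. Below are the exons of Dab1 and Sorbs2, which were included more in Nova2-/- cortex and are shown with the 60 bases upstream of each exon. They are followed by exons of Epb4.1, Epb4.1l2 and Agrn, which were included less and are shown with 60 or 100 bases downstream. Agrn was added with its values known, and the other genes are among those ranked further on. All 10 exons are coding in the annotation. Sequences run 5′ to 3′ on the transcript strand, and capitals mark TCAT and TCAC as well as the variants CCAT and CCAC, the 4 tetramers that NOVA proteins bind.
Dab1 exon 1 of the pair, chr4:104386167-104386277, plus strand: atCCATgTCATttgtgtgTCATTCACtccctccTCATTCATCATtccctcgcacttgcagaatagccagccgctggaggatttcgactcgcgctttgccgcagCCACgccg
Dab1 exon 2 of the pair, chr4:104386309-104386422, plus strand: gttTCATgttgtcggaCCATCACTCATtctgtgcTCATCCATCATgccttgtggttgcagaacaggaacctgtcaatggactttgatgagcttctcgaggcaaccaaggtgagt
Sorbs2 exon 1 of the pair, chr8:46868096-46868314, plus strand: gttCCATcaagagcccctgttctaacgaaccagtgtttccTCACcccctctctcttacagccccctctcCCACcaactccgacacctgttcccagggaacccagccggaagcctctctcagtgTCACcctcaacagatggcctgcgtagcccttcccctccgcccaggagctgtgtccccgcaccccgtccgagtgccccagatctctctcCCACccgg
Sorbs2 exon 2 of the pair, chr8:46868837-46868980, plus strand: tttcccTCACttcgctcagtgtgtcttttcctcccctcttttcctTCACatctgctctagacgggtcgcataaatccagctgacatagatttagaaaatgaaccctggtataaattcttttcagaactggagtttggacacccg
Epb4.1 exon 1 of the pair, chr4:131519946-131520102, minus strand: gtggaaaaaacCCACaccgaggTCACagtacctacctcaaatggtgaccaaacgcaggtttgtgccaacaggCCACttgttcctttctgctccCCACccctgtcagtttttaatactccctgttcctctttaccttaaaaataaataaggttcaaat
Epb4.1 exon 2 of the pair, chr4:131519744-131519885, minus strand: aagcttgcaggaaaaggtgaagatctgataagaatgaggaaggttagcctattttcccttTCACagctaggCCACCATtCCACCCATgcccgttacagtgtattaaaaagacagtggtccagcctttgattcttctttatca
Epb4.1l2 exon 1 of the pair, chr10:25219582-25219809, plus strand: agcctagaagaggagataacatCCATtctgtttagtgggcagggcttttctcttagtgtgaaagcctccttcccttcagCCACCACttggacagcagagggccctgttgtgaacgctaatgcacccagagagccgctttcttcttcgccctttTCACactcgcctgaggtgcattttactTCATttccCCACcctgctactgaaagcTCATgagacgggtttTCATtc
Epb4.1l2 exon 2 of the pair, chr10:25221384-25221497, plus strand: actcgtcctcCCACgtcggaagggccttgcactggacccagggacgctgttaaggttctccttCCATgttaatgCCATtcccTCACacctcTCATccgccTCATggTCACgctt
Agrn exon 1 of the pair, chr4:155542555-155542678, minus strand: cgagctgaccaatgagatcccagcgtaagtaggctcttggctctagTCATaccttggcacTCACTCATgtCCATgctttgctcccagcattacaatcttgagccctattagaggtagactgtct
Agrn exon 2 of the pair, chr4:155541786-155541918, minus strand: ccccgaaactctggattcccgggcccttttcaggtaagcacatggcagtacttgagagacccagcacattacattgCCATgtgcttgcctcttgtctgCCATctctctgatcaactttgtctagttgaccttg
The Dab1 exons are 51 and 54 nt long as annotated, at chr4:104386227-104386277 and chr4:104386369-104386422, and their printed stretches hold 8 and 7 tetramers. All but 1 of these 15 lie in the 60 bases upstream of the exons. The Dab1 event names hold no coordinates, so this pair is the annotated pair inside the span, and another annotated transcript ends the downstream exon earlier. Neither Agrn exon holds a tetramer, and the 100 bases that follow them hold 4 and 2. The table listed only events with such motifs under NOVA CLIP clusters, so their presence near these exons is not a result.

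In Nova2-/- cortex the tandem cassette events were split nearly evenly between the directions. ΔI was above 0 in 349 of 720 events (48.5%) and below 0 in 371, beside 48.6% above 0 over all 1991 events. Counted as spans, 146 were above 0 and 148 below. The median |ΔI| was 0.217, with quartiles of 0.154 and 0.318, and 43 events on 26 spans reached 0.5. These values chose the members, since every listed event had |ΔI| of at least 0.1 and a false discovery rate (FDR) below 0.1 in this comparison, and they are given as a description. The members just inside those limits had |ΔI| of 0.1001 and an FDR of 0.0990.

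**Figure D1:**
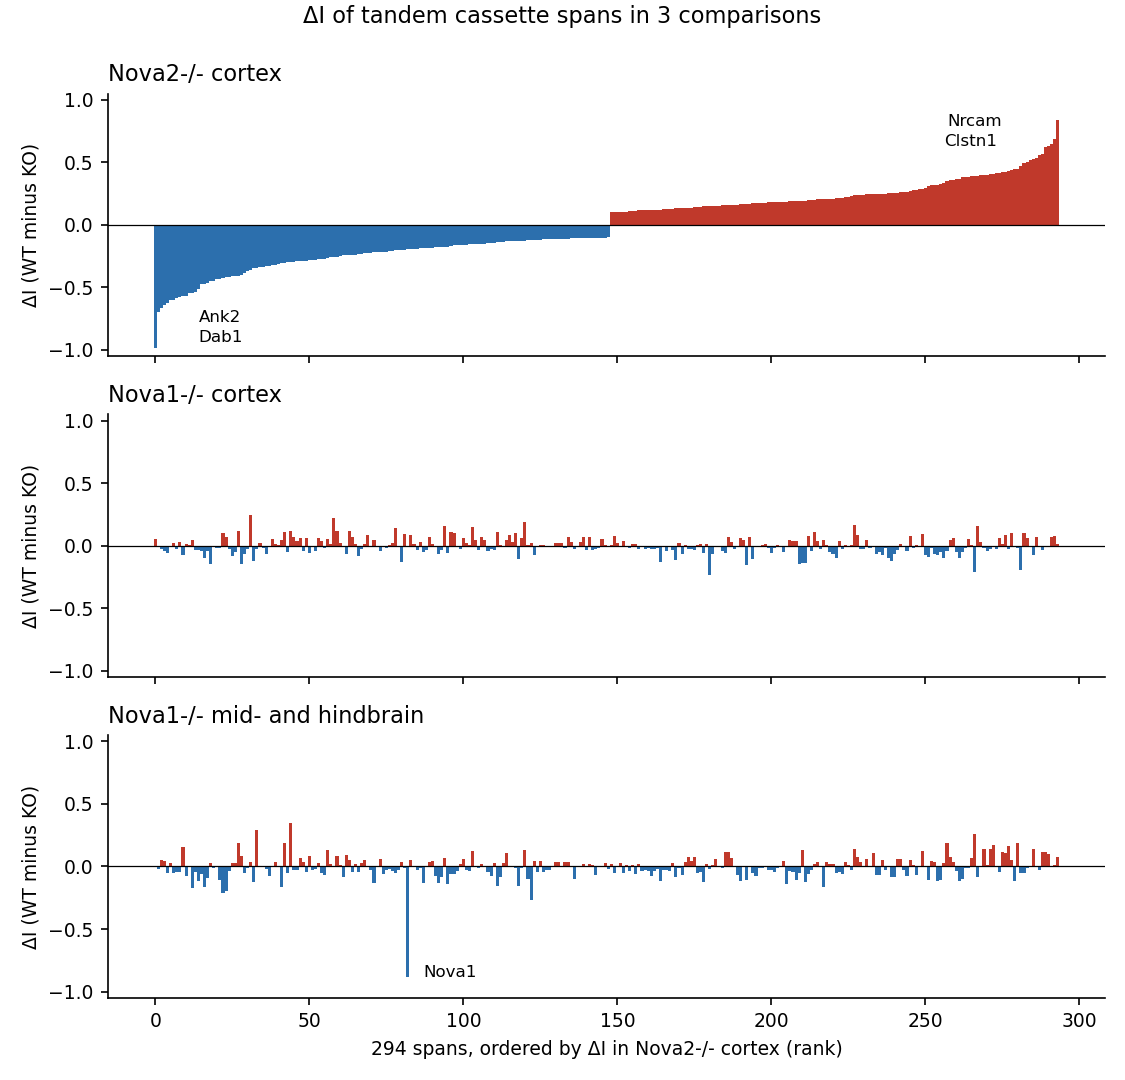
Each bar is the ΔI (wild-type minus knockout, no unit) of 1 of the 294 spans, taken from the event with the largest |ΔI| in Nova2-/- cortex, with spans in the same order in all 3 panels. Values run from -0.985 to 0.838 in Nova2-/- cortex, stay between -0.234 and 0.243 in Nova1-/- cortex, and in Nova1-/- midbrain and hindbrain lie between -0.267 and 0.350 except for the span in Nova1 itself.

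Among exons included less without NOVA2, the largest ΔI was that of Nrcam, an L1-family adhesion molecule that binds ankyrins (ΔI 0.838). Clstn1, a transmembrane adaptor that links cargo to kinesin, followed at 0.683. Sorbs2, an adaptor protein of actin-rich structures, had a span at 0.646. Epb4.1, which ties spectrin and actin to the membrane, was at 0.627, and Jade3, a PHD finger protein of histone acetyltransferase complexes, at 0.568. Clasp2, which stabilises microtubule plus ends, stood at 0.560. The ubiquitin ligases Hecw1 and Nedd4l were at 0.537 and 0.515, the C2-domain protein Mctp1 at 0.526 and the unconventional myosin Myo9a at 0.503. In all 10 genes the wild-type cortex included the block more often by 50 percentage points or more.

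Among exons included more without NOVA2, Dab1, the cytoplasmic adaptor of reelin receptors, stood apart with a ΔI of -0.985, near the full range of the scale. Ank2, or ankyrin-B, which anchors membrane proteins to the spectrin skeleton, was next at -0.698. Ino80e, a subunit of a chromatin remodelling complex, was at -0.660, another span of Sorbs2 at -0.622 and Srr, which makes D-serine from L-serine, at -0.603. Neo1, or neogenin, a receptor for netrins and repulsive guidance molecules, was at -0.598. Abhd14a, a hydrolase-fold protein, was at -0.585, the phospholipase Plcb4 at -0.579, the ADP-dependent glucokinase Adpgk at -0.571 and Ccdc136 at -0.571. None of these 20 leading events passed both limits in Nova1-/- cortex or in Nova1-/- midbrain and hindbrain, while other events on the Ccdc136 span did in midbrain and hindbrain. The 10 events with the lowest ΔI had values between -0.0750 and 0.0526 in Nova1-/- cortex, and those with the highest had values between -0.0767 and 0.0747.

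The host genes were read by role, over 8 gene lists. Each gene was counted by its event with the largest |ΔI|. Of all host genes, 15 had spans of both signs, Sorbs2, Erc2 and Epha5 among them. Of 51 ankyrins, spectrins and adhesion molecules listed, 13 held a tandem event, 9 with ΔI above 0 and 4 below. Their median |ΔI| was 0.249, beside 0.225 over all 233 host genes with the largest event of each. Nrcam (0.838), Ank2 (-0.698), Epb4.1 (0.627) and Epb4.1l2 (0.470), another protein of the 4.1 family, led that list. Of 77 axon guidance genes, 9 held a tandem event, 4 above 0 and 5 below, with a median |ΔI| of 0.188. The leading members were Neo1 (-0.598), the ephrin ligand Efnb2 (-0.241), the kinase Pak6 (-0.228) and the semaphorin Sema6d (0.192).

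The 3 genes of reelin signalling and neuronal migration with a tandem event, of 21 listed, all had a negative ΔI. They were Dab1, the reelin receptor Lrp8 (-0.225) and the fibroblast growth factor receptor Fgfr2 (-0.137). Of 50 synaptic scaffold and vesicle genes 6 held an event, 2 above 0 and 4 below, with a median |ΔI| of 0.339. These were led by Sorbs2 (0.646) and the active zone proteins Rims1 (-0.475) and Erc2 (0.355). Of 49 ion channel and receptor genes listed, 2 held an event, both below 0: Kcnma1, a calcium-activated potassium channel (-0.293), and the kainate receptor subunit Grik2 (-0.281). Some channel genes with an event are outside that list, and of these Scn9a (0.422) and the potassium channel Kcnh7 (0.354 and 0.251) were above 0, the latter picked with its values known.

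Of 53 kinases and phosphatases listed, 12 held an event, 10 above 0 and 2 below, with a median |ΔI| of 0.173. ΔI was above 0 in 46.8% of all 233 host genes. The list does not hold every kinase or phosphatase among the host genes, so its split rests in part on which genes it holds. Outside it, Cdkl3 (-0.346), Ptpn5 (-0.324), Csnk2a1 (-0.239), Eif2ak4 (-0.237), Pak6 (-0.228), Ptprs (-0.220), Fgfr2 (-0.137) and Pak3 (-0.113) were below 0. Synj1 (0.410), Ptprd (0.249), Ptk2 (0.186) and Ptprk (0.150), also outside it, were above 0. These examples were picked with their values known and are not all such genes. Pxk (0.494), Map3k9 (0.448), Wnk2 (-0.338) and Camk2g (0.276), a subunit of calcium/calmodulin-dependent kinase II, had the largest |ΔI| within the list. Of 41 microtubule and motor genes 7 held an event, 5 above 0 and 2 below. Clasp2 (0.560), the dendritic microtubule-associated protein Map2 (0.379), the plus-end protein Clip1 (0.262) and the dynein intermediate chain Dync1i1 (0.188) led these, with a list median of 0.188. RNA-binding proteins gave 4 host genes of 59, with Nova1 below 0 (-0.196) and Tia1 (0.194), Celf2 (0.179) and Luc7l (0.168) above 0. RNA-binding host genes outside that list include Zc3h14 (-0.176) and Stau2 (-0.116) below 0 and Sarnp (0.192) above 0, picked with their values known. The lists were read against the median over all host genes only, and no list was tested.

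Spans often held more than 1 event, because different pairs of inner exons were measured between the same flanking exons. A single event lay on 146 spans, 2 to 5 on 123 and more than 5 on 25, and the most, 21 events, lay on a span of Immt, a mitochondrial inner membrane protein. The events of a span never differed in sign, in any of the 148 spans with more than 1 event. Such events share the flanking exons and reads there, so this likeness is partly built in. Their sizes were close, with a median range of ΔI of 0.0385 inside a span, and the range was above 0.1 in 34 spans and above 0.2 in 11.

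The widest range was in Dab1, at chr4:104360988-104390877 on the plus strand, where the 2 events had ΔI of -0.985 and -0.559. Map3k9, a mixed-lineage kinase, ranged from 0.138 to 0.448 over 4 events. Mpped1, a metallophosphoesterase-domain protein, ranged from 0.119 to 0.414 over 7 events and Ccdc136 from 0.137 to 0.423 over 2. The noncoding host Snhg14 ranged from -0.447 to -0.165 over 5 events, and Map2 from 0.134 to 0.379 over 14. In these spans the direction was shared while the size depended on which exons were counted together.

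Different spans of the same gene could shift in opposite directions. Of the 45 genes with more than 1 tandem span, 15 had spans of both signs. Sorbs2 had 3 spans in 5′ to 3′ order with ΔI of 0.391, -0.622 and 0.646, at chr8:46855183-46858062, chr8:46860943-46875379 and chr8:46878135-46885155. The span in the middle was included more in the knockout, and the spans on either side of it were included less. Ccdc136 had overlapping spans at -0.571 and 0.423. Vcan, the proteoglycan versican, had overlapping spans at -0.461 and 0.204, Fmnl2, an actin-nucleating formin, had separate spans at 0.430 and -0.231, and Erc2 had 3 spans at 0.355, -0.183 and 0.154. Among the 15, Vcan and Fmnl2 were picked with their values known.

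Most tandem spans also carried a single cassette event. Events were matched by span alone, so the single exon need not belong to the block. Among the 83 placed spans, 45 had an exon of the block matched to a single cassette event. A single cassette row had the same span in 223 of the 294 spans, and its ΔI had the same sign in 222 of them. The median absolute difference between the tandem and the single value was 0.0425. It was below 0.05 in 121 spans (54.3%) and at least 0.1 in 44. Junction reads at the flanking exons enter both values, so this likeness is partly built in. The exception in sign, named for that reason, was a span of 4833439L19Rik, with a tandem ΔI of -0.218 and a single ΔI of 0.156. Dab1 differed most, with -0.985 for the tandem event and -0.425 for the single cassette event on the same span. The 71 spans with no single cassette row had a smaller median |ΔI|, 0.154, and 36 of them were above 0. A single cassette row was listed only past the same limits, so this smaller median is partly built in.

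**Figure D2:**
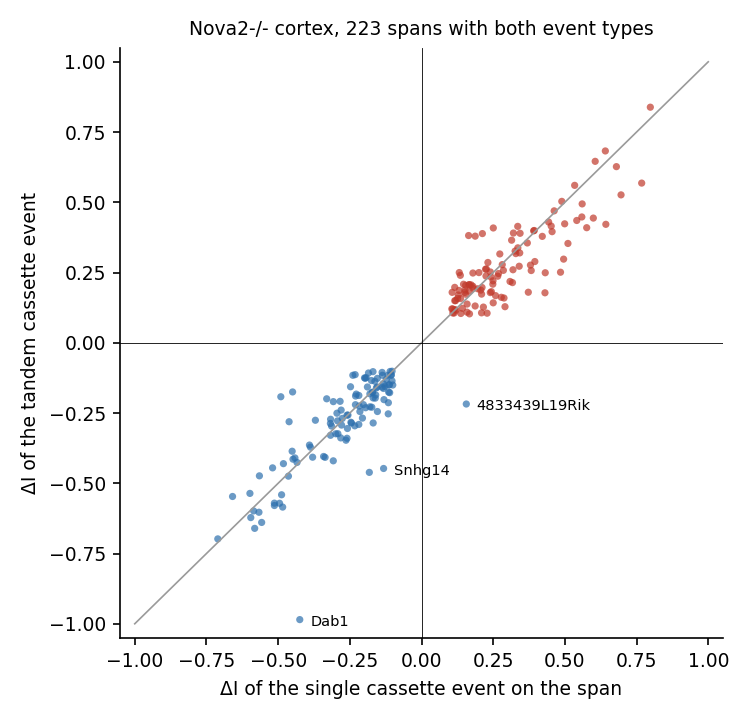
Each point is 1 of the 223 spans that carried both event types, with the ΔI of the single cassette event on the x axis and of the tandem event on the y axis, both from Nova2-/- cortex and without unit. The grey line marks equal values. Points gather along it, and Dab1 (-0.425 and -0.985), Snhg14 (-0.132 and -0.447) and 4833439L19Rik (0.156 and -0.218) lie farthest below it.

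For 12 of the placed spans, every exon of the block also stood in the table as a single cassette. In 11 of them all single values had the sign of the block. Reads of the same exons enter both values, so this likeness too is partly built in. In Agrn, which encodes the proteoglycan agrin that clusters acetylcholine receptors, the exons of 24 nt (chr4:155542655-155542678) and 33 nt (chr4:155541886-155541918) had single values of 0.428 and 0.293, and the pair had 0.400. These are the short exons that mark neuronal agrin. In Epb4.1 the 57-nt exon (chr4:131520046-131520102) was at 0.547, the 42-nt exon (chr4:131519844-131519885) at 0.680 and the pair at 0.627. In Sorbs2 the 159-nt exon (chr8:46868156-46868314) was at -0.529, the 84-nt exon (chr8:46868897-46868980) at -0.576 and the pair at -0.622. The exception was Lrrc16a, which encodes a regulator of actin capping. Its 25-nt exon had a single ΔI of 0.250, its 150-nt exon -0.256 and the pair 0.142. Lrrc16a, like Agrn, was picked with its values known.

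The placed exons differed in length with the direction of the shift. Those in spans with ΔI above 0 had a median length of 67.5 nt (quartiles 40.5 and 112.5, 82 exons), and those in spans below 0 had 117.5 nt (71.5 and 173.25, 80 exons). Exons of 27 nt or less, often called microexons, made up 13 of the 82 exons with ΔI above 0 and 0 of the 80 below. Over both directions they made up 8.02% of the 162 tandem exons. That stood beside 8.15% of 319 placed single cassette exons, not split by direction, and 1.53% of 177725 internal exons of annotated protein-coding transcripts. The shortest blocks, with at most 60 nt in all and picked afterwards by length, lay in Synj1 (17 and 4 nt, ΔI 0.410), Ptprd (9 and 18 nt, 0.249), Clasp2 (27 and 27 nt, 0.560) and Agrn (24 and 33 nt, 0.400). Synj1 is a synaptic phosphoinositide phosphatase and Ptprd a receptor tyrosine phosphatase of synaptic adhesion. The Synj1 and Ptprd pairs were placed as the only annotated chain, so their lengths, the 4-nt exon included, rest on the annotation alone.

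Most placed blocks had a length that could keep the reading frame, counted whether or not their exons were coding. The summed length of the block was a multiple of 3 nt in 66 of 83 placed spans (79.5%), in 37 of 43 above 0 and in 29 of 40 below. In 51 spans every exon was a multiple of 3 by itself. In 15 spans the exons were so only when added together, among them Ube2h (40 and 53 nt, ΔI -0.329), Pdzd2 (143 and 133 nt, -0.407) and Cnot2 (148 and 80 nt, 0.123). Ube2h and Pdzd2 were picked with their values known. Taken exon by exon, 67.3% of tandem exons, 74.9% of single cassette exons and 40.5% of all internal exons were multiples of 3. Every exon was coding in 63 of the 83 spans, and the annotation also held the transcript without the block in 53. Placement needed annotated flanking exons, so these figures describe the annotated part of the spans, and no difference between directions was tested.

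The same 4 tetramers were counted on the transcript strand, overlaps included, in each placed exon and in 200 nt on either side. Downstream of exons with ΔI above 0 the density was 2.13 per 100 nt (exact binomial 95% interval over the bases searched 1.91 to 2.36, counting error only), and upstream of them it was 1.66 (1.47 to 1.87). Around exons with ΔI below 0 it was 1.98 upstream (1.77 to 2.21) and 1.90 downstream (1.69 to 2.12). Single cassette exons showed the same order with a wider gap, 2.43 downstream and 1.65 upstream above 0, and 1.83 downstream and 2.20 upstream below 0. All internal exons had 1.61 downstream and 1.69 upstream, and 94.4% and 95.5% of such windows held at least 1 tetramer. Inside the exons the density was 1.91 above 0 and 2.07 below 0. Neighbouring exons of a block can share part of a window, and selection for motifs under CLIP clusters had already shaped these counts.

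**Figure D3:**
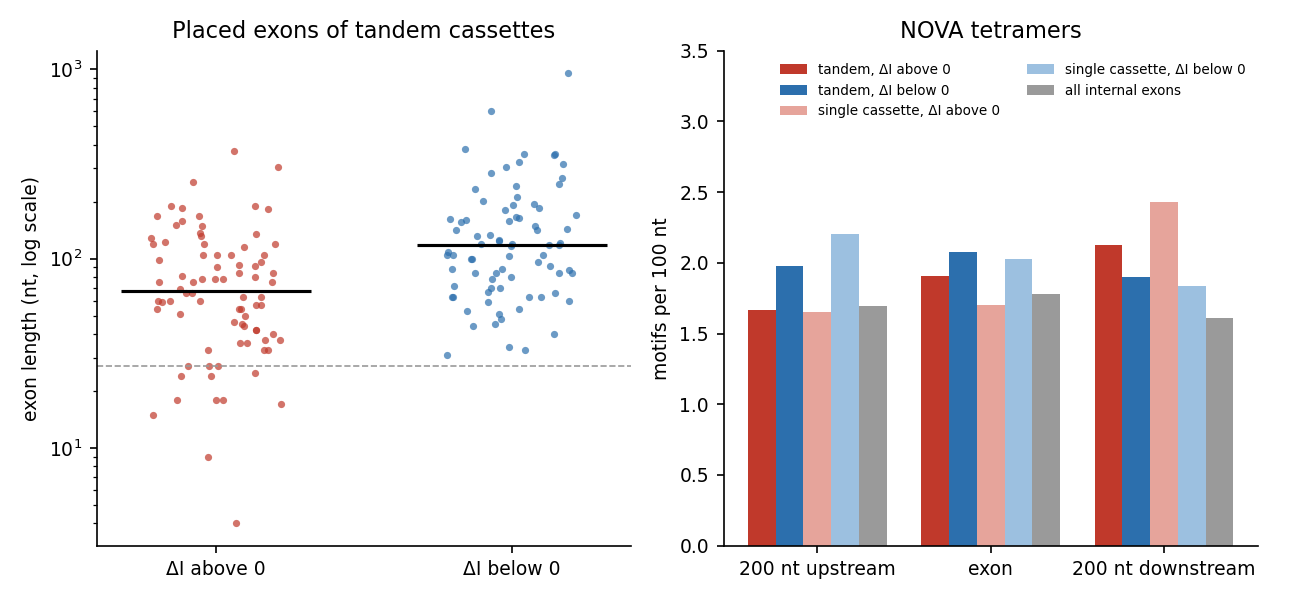
Left, the length in nt (log scale) of each placed tandem exon, grouped by the sign of its ΔI in Nova2-/- cortex, with a black line at the median (67.5 and 117.5 nt) and a dashed line at 27 nt. Right, bars give the density of the 4 tetramers per 100 nt in the exon and in 200 nt on either side for tandem, single cassette and all internal exons. Tandem exons with ΔI above 0 have their highest density downstream (2.13).

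In Nova1-/- cortex the same blocks changed little. The median |ΔI| was 0.0329 over the 716 events with a value, and 636 of them (88.8%) lay below 0.1. The 4 events without a value were those of Nova1 itself. Both limits, |ΔI| of at least 0.1 and FDR below 0.1, were passed by 10 events on 6 spans, or 1.40% beside 0.907% of 1984 events of all types. All 6 spans had the sign opposite to that in Nova2-/- cortex. Rnf111, a ubiquitin ligase of TGF-beta signalling, had -0.234 (FDR 0.0116) against 0.152 in Nova2-/- cortex. Phf20, a histone methyl-lysine reader, had 0.159 (FDR 0.0905) against -0.176. Luc7l, a U1 snRNP-associated splicing factor, had -0.156 (FDR 0.000160) against 0.167. Tia1, an RNA-binding protein that itself promotes splice site use, had -0.145 (FDR 0.0589) against 0.194, and Cnot2, a subunit of the deadenylase complex, had -0.128 (FDR 0.0254) against 0.123. The remaining span, named to complete the 6, was in the centrosomal protein Cep170, with 0.101 (FDR 0.0125) against -0.127. The comparisons share no samples, since each knockout had its own wild-type samples. Over all 716 events, 282 (39.4%) had the same sign in both cortex comparisons, beside 44.0% over events of all types. Counted as spans the share was 43.0%, and among the 43 events with |ΔI| from 0.5 up it was 53.5%.

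In Nova1-/- midbrain and hindbrain 41 tandem events on 20 spans of 19 genes passed both limits, which was 5.69% beside 5.98% of all 1991 events. The sign matched that in Nova2-/- cortex in 11 spans and was opposite in 9. Among matching spans, Zfp780b, a zinc finger protein, had -0.320 (FDR 0.0552) in Nova1-/- midbrain and hindbrain and -0.318 in Nova2-/- cortex. Adgrb3, an adhesion receptor of synapses, had -0.267 (FDR 2.1e-16) and -0.119, and Tom1l2, an endosomal sorting protein, had -0.203 (FDR 0.00956) and -0.370. The deubiquitinase Cyld had -0.163 (FDR 0.0372) and -0.305, and the ubiquitin ligase Huwe1 had -0.151 (FDR 0.0614) and -0.134. Among opposite spans, the histone demethylase Kdm3b had 0.350 (FDR 0.00811) and -0.296, the kinase Cdkl3 had 0.303 (FDR 0.0636) and -0.343, and the DNA repair polymerase Polb had -0.164 (FDR 0.00931) and 0.206. Tia1, Luc7l and Cnot2 passed both limits in both Nova1-/- tissues, with the same sign in both. The samples of both tissues carry the same numbers and may come from the same embryos, so the tissues were not taken as independent.

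**Figure D4:**
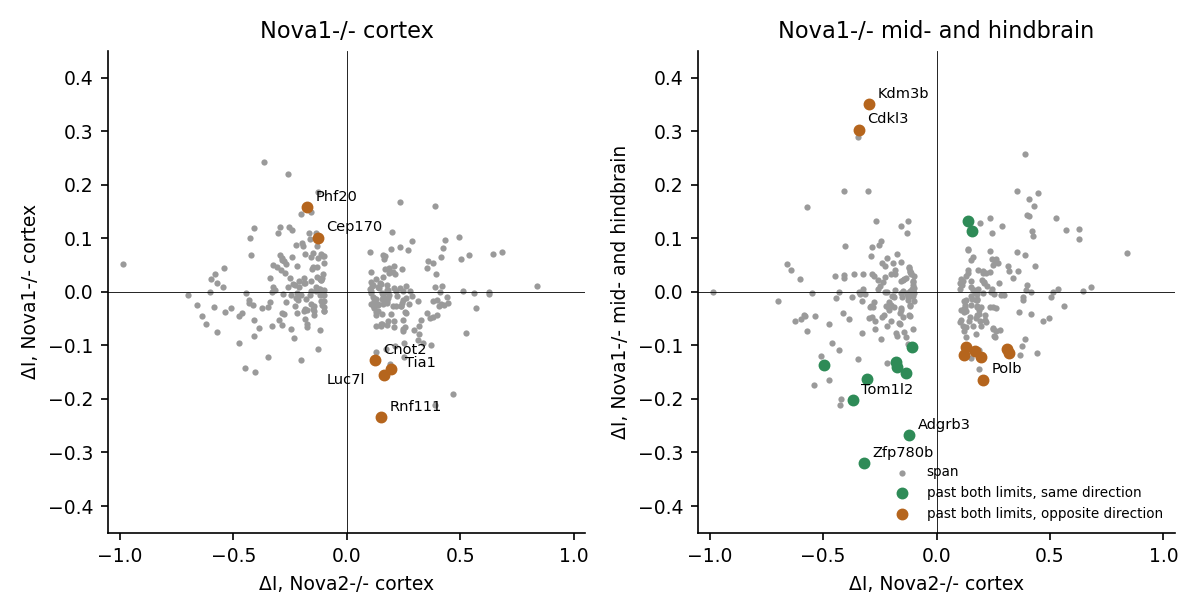
Each grey point is 1 span, taken from its event with the largest |ΔI| in Nova2-/- cortex, with that ΔI on the x axis and its ΔI in Nova1-/- cortex (left) or Nova1-/- midbrain and hindbrain (right) on the y axis, without unit. Coloured points are events that passed both limits in the Nova1-/- comparison, 1 for each such span, green with the same and brown with the opposite sign. The 6 coloured spans on the left are all opposite, and on the right 11 are the same and 9 opposite. The Nova1 span (-0.880 in Nova1-/- midbrain and hindbrain) is left out.

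The share of events with the same sign in Nova1-/- midbrain and hindbrain as in Nova2-/- cortex was 401 of 708 (56.6%), with the 12 events at exactly 0 left out. It was 51.7% of 329 events with |ΔI| from 0.1 to 0.2 in Nova2-/- cortex, 57.4% of 188 from 0.2 to 0.3, 60.9% of 151 from 0.3 to 0.5 and 77.5% of 40 from 0.5 up. Events of a span are not independent. Counted as spans without Nova1, the share in these classes was 44.8% of 134, 53.4% of 73, 60.3% of 58 and 75% of 24. Without the events of Nova1 and Nova2 the share was 56.4% for tandem events and 58.1% for events of all types. Among events of all types with |ΔI| from 0.5 up it was 78.4%. Among the leading spans named above, Neo1 (-0.598) had -0.0501 in Nova1-/- midbrain and hindbrain (FDR 3.53e-07) and Ank2 (-0.698) had -0.0165 (FDR 0.0455). Both values are below the |ΔI| limit of 0.1. Opposite signs there were those of Adpgk (0.158 against -0.571), Ino80e (0.0527 against -0.660), Srr (0.0246 against -0.603), Clasp2 (-0.0267 against 0.560) and Myo9a (-0.0106 against 0.503). Dab1 was listed at exactly 0 there and at 0.0526 in Nova1-/- cortex.

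The Nova1 gene was itself a host. Its 4 events lay on 1 span, chr12:47795504-47821843 on the minus strand, with ΔI between -0.196 and -0.173 in Nova2-/- cortex. In Nova1-/- midbrain and hindbrain, where this gene is the one disrupted, they were listed between -0.892 and -0.880 with an FDR of 1. In cortex, Nova1 RNA was at 71.0, 75.6 and 41.3 CPM (read counts scaled to a common library size) in wild-type samples 4 to 6 and at 0.112, 0.0338 and 0.211 in the Nova1-/- samples. The knockout samples were at the floor of the measurement, and the fitted log2 change was -9.06 (SE 0.383, edgeR quasi-likelihood test, adjusted p = 7.9e-07).

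The abundance of the host genes was not used to choose the events, though it was measured in the same libraries as ΔI. Of 233 host symbols, 226 were matched in the abundance table, which held counts for the 12 cortex samples, with 16518172 to 31362018 counts in each, and all 226 were tested. In Nova2-/- cortex 9 of them (3.98%) passed an adjusted p below 0.05, beside 1.06% of all 15691 genes tested, 6 higher and 3 lower. Only Scn9a also reached an absolute log2 change of 1, or 0.442% beside 0.261% of all genes. The median absolute log2 change of the 226 host genes was 0.127, beside 0.159 over all genes, and 63 (27.9%) had an unadjusted p below 0.05, beside 19.2% of all genes. In Nova1-/- cortex the sole host gene called was Nova1, under either limit, beside 0.0126% of 15901 genes, and 11 (4.87%) had an unadjusted p below 0.05, beside 7.44% of all genes.

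Scn9a, a voltage-gated sodium channel subunit, was at 47.7, 53.0 and 43.6 CPM in wild-type and at 106, 105 and 90.0 CPM in Nova2-/- cortex. The groups did not overlap, as in 80 of the 226 host genes (35.4%) and 26.7% of all genes tested. The log2 change was 1.06 (SE 0.101, adjusted p = 0.0058 by the edgeR quasi-likelihood test). Ccp110, a centriolar protein that restrains cilium formation, was at 82.4, 85.5 and 72.2 CPM in wild-type and at 143, 145 and 156 CPM in the knockout. Its log2 change was 0.89 (SE 0.081, adjusted p = 0.0054). C2cd5, a vesicle protein of insulin signalling, was at 90.6, 102 and 88.9 CPM in wild-type and at 165, 171 and 163 CPM in the knockout, with a log2 change of 0.83 (SE 0.073, adjusted p = 0.0050). Both were matched through an older symbol. The tandem ΔI of these 3 genes was 0.422, -0.314 and 0.286, so higher abundance stood beside shifts of either sign.

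The host genes lower in the knockout were Actl6b, Srr and Ahi1. Actl6b, the neuronal actin-like subunit of a chromatin remodelling complex, was at 127, 124 and 111 CPM in wild-type and at 70.6, 83.3 and 83.9 CPM in the knockout. The log2 change was -0.60 (SE 0.091, adjusted p = 0.032). Srr was at 121, 106 and 93.7 CPM against 71.5, 69.5 and 73.6 CPM, a log2 change of -0.58 (SE 0.098, adjusted p = 0.039). Ahi1, a protein of the ciliary base, was at 474, 443 and 513 CPM against 345, 360 and 352 CPM, a log2 change of -0.44 (SE 0.071, adjusted p = 0.038). The tandem ΔI of Actl6b was 0.398, that of Srr -0.603 and that of Ahi1 -0.116. The other 3 called host genes, named to complete the 9, were Ddr1 (0.58), Vcan (0.45) and Nedd4l (0.39 on the log2 scale). Srr and Nedd4l are among the genes with the largest |ΔI|. Others of those genes did not pass the test, with log2 changes of 0.02 in Nrcam, 0.04 in Dab1, -0.10 in Clstn1 and 0.33 in Ank2.

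**Figure D5:**
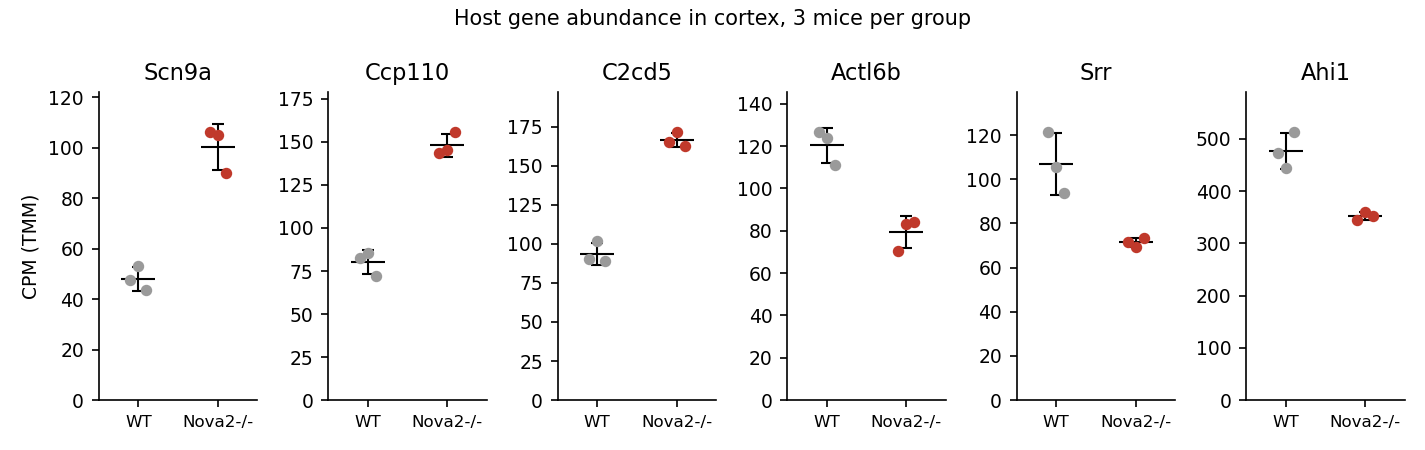
Points are the CPM of each sample, scaled by TMM, for 6 host genes in wild-type (grey) and Nova2-/- (red) cortex, with the mean as a dash and the SD as bars, 3 samples in each group. Every axis starts at 0. The groups do not overlap in any of the 6 genes, which were drawn from those called. Groups of 3 also did not overlap in 26.7% of all 15691 genes tested.

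The count of called host genes rested on single samples. It was 46 without wild-type sample 3, 0 without Nova2-/- sample 2 and 2 or 3 without any other sample, and Ccp110 and C2cd5 held in 5 of these 6 fits, Scn9a in 4 and every other called gene in 1. Nova2 RNA was at 31.3, 31.6 and 41.0 CPM in wild-type and at 17.1, 17.95 and 21.8 CPM in Nova2-/- cortex. Its log2 change was -0.87 (SE 0.142, adjusted p = 0.037 by the edgeR test). Without wild-type sample 3 its adjusted p was 0.0091, and without any other sample it was 0.082 to 0.186, past the threshold in 1 of these 6 fits. The Nova2 allele lacks the exon with the initiator codon, and RNA counts do not measure the protein. The study's Western blots found NOVA2 protein absent from Nova2-/- cortex at birth. Neuronal markers (Tubb3, Rbfox3 and Snap25) summed to 1791 to 2190 CPM in wild-type and 1685 to 1891 CPM in Nova2-/- cortex. Of 6 meningeal markers (Col1a1, Col1a2, Col3a1, Dcn, Lum and Igf2) all were higher in each Nova2-/- sample than in each of wild-type samples 1 to 3. Over all 15691 genes tested, 26.7% had groups that did not overlap, in either direction. The 6 markers were not tested as a set. These markers summed to 186 to 490 CPM in wild-type samples 1 to 3 and 744 to 983 CPM in Nova2-/- cortex. Their sum was 685 to 884 CPM in wild-type samples 4 to 6 and 592 to 707 CPM in Nova1-/- cortex. In the Nova2-/- comparison Col1a1 (adjusted p = 0.048) and Dcn (adjusted p = 0.042) passed the edgeR test. The part of the meningeal markers in the host gene values and in ΔI was not tested.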

How the data were processed

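Brains of mouse embryos were sampled in 6 groups of 3, as Trizol RNA made into ribosomal RNA-depleted TruSeq libraries. The authors aligned reads with OLego, quantified inclusion from exon-junction reads and deposited 1 ΔI score and 1 FDR (an adjusted p-value) for each event and comparison, in mm9 coordinates. The deposited ΔI and FDR columns are the authors' comparisons and were used because they define and describe the members; an event was called at |ΔI| of at least 0.1 and FDR below 0.1. Starts are deposited from 0 and printed from 1: the start of 263 of 294 spans then meets an annotated exon start, and 3 do otherwise. Gene abundance was deposited by the authors in expected counts per sample for 12 cortex samples, together with fold changes and FDRs of their own, which were not used. No other columns of per-sample values were left out (0).

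Expected counts were rounded and tested with edgeR 4.0.16 (R 4.3.3): filterByExpr, TMM, glmQLFit and glmQLFTest on the 6 samples of each comparison, with Benjamini-Hochberg adjustment over all genes. Host genes were called at an adjusted p below 0.05, with any fold and with an absolute log2 change of at least 1. DESeq2 1.42.0, upper-quartile scaling, no filter, leaving out each sample and a replicate block were alternatives. The fit was tested on simulated data. Symbols were matched exactly (215) or through 1 older symbol in a RefSeq table (11); 2 symbols in date form and 5 others were not matched. By the study's methods, wild-type and knockout samples were littermates and the 3 samples of a genotype biological replicates. Which samples share a litter is not given in the sources used here. The edgeR p-values measure the spread between these samples. Whether the deposited splicing FDRs take in that spread is not given in the sources used here. Wild-type samples 4 to 6 were set against Nova1-/-, since both have midbrain and hindbrain samples, and 1 to 3 against Nova2-/-.

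Exons were placed on NCBIM37 (mm9) with the GENCODE vM1 annotation. Named spans were the 10 with the highest and the 10 with the lowest ΔI, 1 per gene and direction, the 5 and 8 with the largest |ΔI| among those called in Nova1-/- cortex and in midbrain and hindbrain, the 6 with the widest range between their events, 4 for each gene list, and for abundance the called genes at the extremes. Where other genes are named, the text says so, and a gene and a sequence that this rule would name are not reported here. The members and the lists were chosen with earlier results of these data known.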

Additional observations from a re-analysis of the deposited data

How the results depend on the processing

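Counts of called host genes in Nova2-/- cortex depended on the fit. At an adjusted p below 0.05 and any fold, 9 genes were called, 31 with DESeq2 and 0 to 46 when a sample was left out (46 without wild-type sample 3). With |log2 change| of at least 1 the count was 1, and 0 or 1 when a sample was left out. With the replicate number as a block it was 14, all 9 among them. Deviations of same-numbered samples correlated at 0.113, 0.00658 and 0.168, the last being the highest of any pair. Wild-type sample 1 correlated at 0.121 with Nova2-/- sample 2, close to its value with sample 1. These values do not settle whether equal numbers mark a litter that wild-type and knockout samples share. The main fit did not pair samples by number. In Nova1-/- cortex DESeq2 called 2 host genes in place of 1, and Nova1 held in all 6 fits without 1 sample. The uncalled log2 change of Nova1 in Nova2-/- cortex was 0.10 and ran from -0.029 (without wild-type sample 2) to 0.250 when a sample was left out, and that of Nova2 in Nova1-/- cortex was 0.10 and ran from -0.069 (without Nova1-/- sample 1) to 0.216; the cause was not tested.

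Called tandem events fell from 10 to 1 in Nova1-/- cortex at |ΔI| of at least 0.2, to 5 at FDR below 0.05 and to 6 when spans were counted. In midbrain and hindbrain they fell from 41 to 9 at |ΔI| of at least 0.2 and to 20 as spans. The median |ΔI| in Nova2-/- cortex was 0.305 with events below 0.2 left out, by construction. The share of events with the same sign in Nova1-/- midbrain and hindbrain was 52.8% with 1 event per span, below the interval of 52.9 to 60.3% (exact binomial, 95%, counting error only) around 56.6%. Motif densities with flanks of 100 or 300 nt stayed inside the intervals of the 200-nt values. ΔI carries no depth, so its precision is unknown.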
